A study of Mus musculus with 4 samples.

Results

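The genes described here are 42 genes of cytokine receptor and JAK-STAT signalling, taken by name from the 21887 protein-coding genes of the mouse RefSeq table, and examined for open chromatin in 4 ATAC-seq libraries of haematopoietic stem cells (HSCs). They comprise 17 receptors, 4 JAK kinases, 6 STAT factors, 8 members of the SOCS family, 4 other signal regulators and 3 PIM kinases. The cells came from bone marrow flushed from femora and tibiae of male C57BL/6 mice, wild type and 8 weeks old. They were sorted as LSK (positive for Sca-1 and Kit, without lineage markers), CD34-negative, Flt3-negative, CD48-negative and Slam1-positive, and then divided into a CD93-positive and a CD93-negative fraction, with 2 libraries each. Replicate numbers follow the titles. The summit names in the lists carry the numbers 2 and 3 for CD93-positive replicates 1 and 2, but 1 and 3 for CD93-negative replicates 1 and 2. The labels do not say whether the libraries of a fraction came from separate mice, so the spread between them may be technical. The comparison asks whether the chromatin of the CD93-positive and CD93-negative HSC fractions differed.

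A cytokine binds a receptor at the cell surface and brings the JAK tyrosine kinases attached to the receptor chains together. The kinases phosphorylate STAT proteins, which enter the nucleus and switch on genes. Among them are those of several SOCS proteins and of Cish that feed back to shut the receptor off. Kit, Flt3 and Csf1r belong to the receptor tyrosine kinases, which carry their own kinase domain and share several of the downstream regulators. In HSCs these pathways carry signals for survival, for division and, through the interferon receptors, for the response to infection.

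Each library was available as a list of summits, the single bases at which open chromatin peaked. Each summit had the authors' score, taken here as the −log10 of its p or q value. A gene was counted as covered at a gene end when a summit lay within 1000 bp of either end of its RefSeq record, and covered in its window when a summit lay in the gene or within 10000 bp of it. The CD93-positive lists held 21 (replicate 1) and 711 summits (replicate 2), the CD93-negative lists 7989 (replicate 1) and 2755 (replicate 2), and read depth is unknown. A missing summit is therefore a limit of a short list and does not show closed chromatin. Of 16 HSC marker genes, 4 (Tal1, Lyl1, Etv6 and Msi2) were covered at a gene end in CD93-negative replicate 1 and 0 in every other library. Among 40 markers of other cell types, 3 had one in that library (Cd3d, S100a8 and S100a9) and 1 in CD93-negative replicate 2 (S100a8), and the B-cell, erythroid, megakaryocyte, endothelial and stromal markers had none in any library (Kit and Csf1r are both markers and members). Over all protein-coding genes, 32.2% and 12.9% were covered at a gene end in CD93-negative replicates 1 and 2. Both the HSC markers and the other markers lay below these shares. The part of these markers in the results was not tested.

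Sequences at the start sites are shown for the 5 members with a gene-end summit in 3 libraries. At gene ends, these alone could be compared between the fractions. The sequences of Cish and Socs3 are also shown, because they are feedback genes whose windows held the STAT palindrome TTCNNNGAA. Each runs 5′ to 3′ on the strand of the gene, from 150 bases before the RefSeq start (250 for Socs3) through the 30 bases that begin at it (RefSeq, GRCm38.p6). Capitals mark matches on either strand to TTCNNNGAA, the half-site-and-spacer pattern that STAT dimers bind, and to GGGCGG, the GC box bound by Sp1-type factors.
Ifnar1 (chr16:91485065-91485244, plus strand): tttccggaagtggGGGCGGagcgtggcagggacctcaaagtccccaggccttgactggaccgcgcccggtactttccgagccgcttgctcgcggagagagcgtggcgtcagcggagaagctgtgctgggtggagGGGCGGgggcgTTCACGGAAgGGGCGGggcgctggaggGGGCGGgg
Ifngr1 (chr10:19591799-19591978, plus strand): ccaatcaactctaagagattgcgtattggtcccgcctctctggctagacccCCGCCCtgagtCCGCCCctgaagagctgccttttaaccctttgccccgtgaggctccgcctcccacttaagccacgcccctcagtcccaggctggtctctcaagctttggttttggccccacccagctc
Stat3 (chr11:100939511-100939690, minus strand): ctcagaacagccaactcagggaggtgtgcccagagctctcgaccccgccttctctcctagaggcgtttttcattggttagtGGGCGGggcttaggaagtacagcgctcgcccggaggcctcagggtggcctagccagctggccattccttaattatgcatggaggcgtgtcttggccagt
Pim1 (chr17:29490635-29490814, plus strand): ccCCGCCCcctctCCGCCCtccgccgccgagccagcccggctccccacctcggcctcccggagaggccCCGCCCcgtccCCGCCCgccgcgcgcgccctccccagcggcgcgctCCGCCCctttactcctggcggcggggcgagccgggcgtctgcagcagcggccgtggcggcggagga
Pim3 (chr15:88862044-88862223, plus strand): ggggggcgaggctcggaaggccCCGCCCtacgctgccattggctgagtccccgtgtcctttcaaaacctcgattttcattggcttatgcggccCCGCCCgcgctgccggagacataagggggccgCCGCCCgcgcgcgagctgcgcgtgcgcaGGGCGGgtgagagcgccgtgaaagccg
Cish (chr9:107296509-107296688, plus strand): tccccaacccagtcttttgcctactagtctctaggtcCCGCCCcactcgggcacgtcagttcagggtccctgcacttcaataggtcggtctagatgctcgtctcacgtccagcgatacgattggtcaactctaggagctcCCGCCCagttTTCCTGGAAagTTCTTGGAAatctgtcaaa
Socs3 (chr11:117969337-117969616, minus strand): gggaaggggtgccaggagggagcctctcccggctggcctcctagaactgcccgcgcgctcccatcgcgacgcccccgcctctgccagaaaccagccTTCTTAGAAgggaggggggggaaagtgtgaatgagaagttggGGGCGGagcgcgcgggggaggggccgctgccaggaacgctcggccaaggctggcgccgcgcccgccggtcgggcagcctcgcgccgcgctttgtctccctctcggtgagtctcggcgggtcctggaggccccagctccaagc

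In these 7 stretches the palindrome occurs in Ifnar1, Cish and Socs3. With the start base counted as 0, the Cish matches lie at 0 to 8 and at 11 to 19, the Ifnar1 match at -5 to 3 and the Socs3 match at -154 to -146.

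Open chromatin was listed at a gene end of 27 of the 42 genes in CD93-negative replicate 1, 10 in CD93-negative replicate 2, 5 in CD93-positive replicate 2 and 0 in CD93-positive replicate 1. Over all protein-coding genes the same rule held for 32.2%, 12.9%, 3.22% and 0.0183% of genes in these libraries, which would correspond to 13.5, 5.43, 1.35 and 0.00768 of 42 genes. The members' shares were 64.3%, 23.8%, 11.9% and 0%. The 10 genes of CD93-negative replicate 2 were Crlf2, Ifnar1, Ifngr1, Jak1, Stat3, Socs4, Sh2b3, Ptpn11, Pim1 and Pim3, and all were also listed in CD93-negative replicate 1. The 5 genes of CD93-positive replicate 2, Ifnar1, Ifngr1, Stat3, Pim1 and Pim3, were among those 10. By background, 12.7% of all genes were listed in both CD93-negative libraries (10 of 42 members), 2.78% in these and CD93-positive replicate 2 as well (5 of 42), and 19.0% in CD93-negative replicate 1 alone (17 of 42). Any library listed 27 of the 42 members and 32.4% of all genes, so 15 members had no gene-end summit anywhere.

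**Figure D1:**
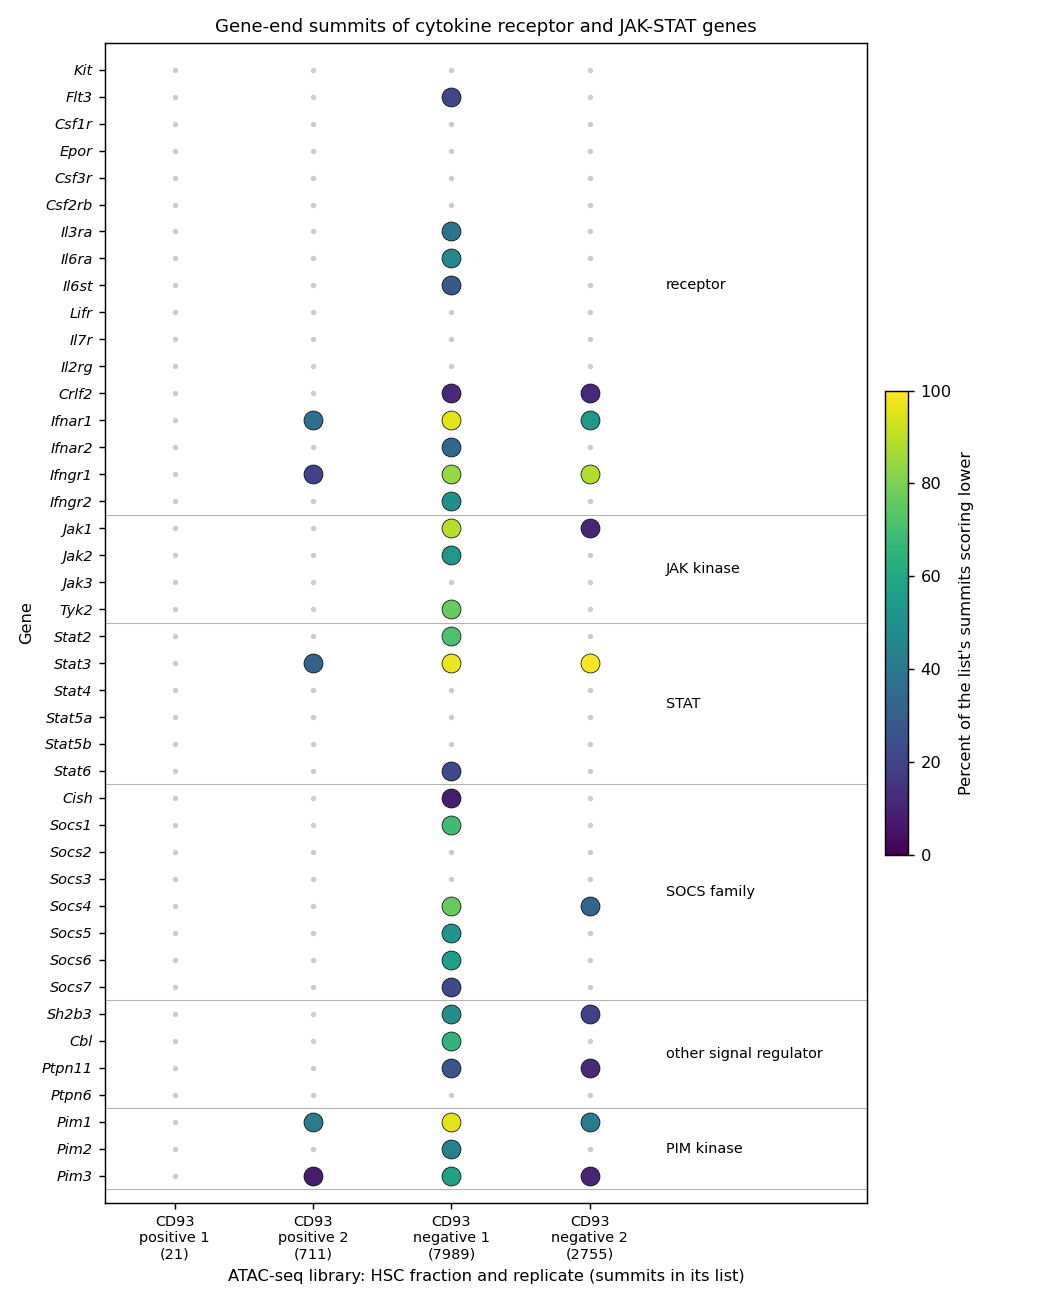
Gene-end summits of the 42 genes (rows, by class) in the 4 libraries (columns, with the number of summits in each list). A filled circle stands for a listed summit, coloured by the percent of that list's summits that scored lower, and a small grey dot for none. Ifnar1, Ifngr1, Stat3, Pim1 and Pim3 are filled in 3 libraries, and the column of CD93-positive replicate 1 is empty.

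**Figure D2:**
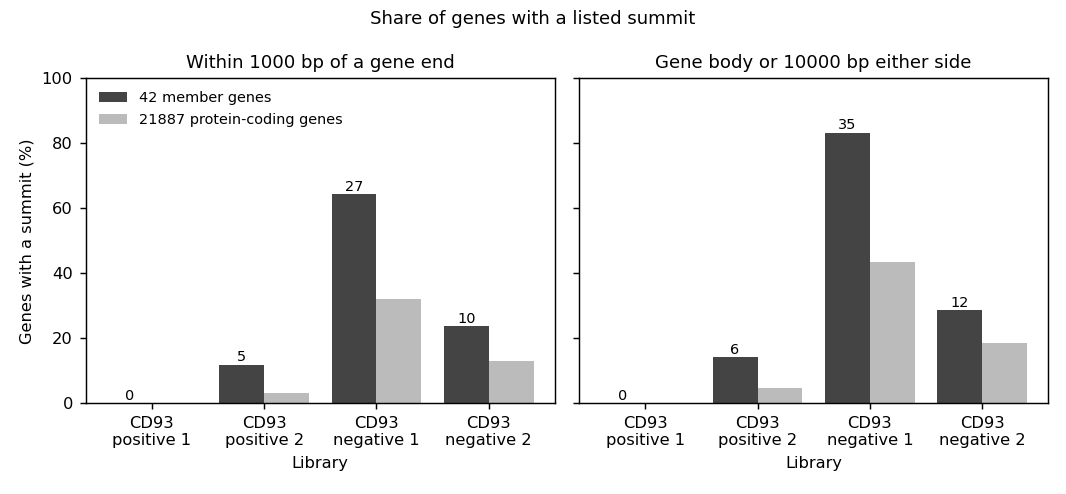
Percent of genes with a summit at a gene end (left) or in the gene window (right) in each library, for the 42 members (dark bars, with the number of genes above) and for all 21887 protein-coding genes (light bars). The member bars reach 64.3% at gene ends and 83.3% in the window in CD93-negative replicate 1, where all genes reach 32.2% and 43.5%.

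The group means were 2.50 ± 3.54 members (SD, n = 2) for the CD93-positive and 18.5 ± 12.0 (SD, n = 2) for the CD93-negative libraries. The counts of the groups did not overlap. Nor did the shares of all protein-coding genes, 0.0183% and 3.22% against 32.2% and 12.9%, so the lack of overlap was not particular to the members. No test was applied, since an exact permutation test (two-sided) of 2 libraries against 2 cannot give a p below 0.333. The longer lists held more members. When each list was limited to its 711 highest-scoring summits (CD93-positive replicate 1 kept its 21), CD93-negative replicates 1 and 2 covered 3 and 2 members against 5 in CD93-positive replicate 2. The background was then 3.28%, 3.38% and 3.22% of all genes, and the difference of the group means, -16 members with whole lists, was 0. That mean still held the list of 21 summits, and without it the difference was 2.5 members, with more in CD93-positive replicate 2. Whether list length accounts for the difference was not tested. At that length Stat3 alone was covered in all 3 libraries.

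Interferons are cytokines that signal viral and bacterial infection. All 4 interferon receptor chains were covered at a gene end in CD93-negative replicate 1, and 1 chain of each receptor was covered in CD93-positive replicate 2 as well. Of all genes, 32.2% and 3.22% were covered in these libraries. Among 26 receptors that are no members, 4 were covered in CD93-negative replicate 1 and 0 in CD93-positive replicate 2. Ifnar1 (gene ID 15975, chromosome 16, 91485032 to 91510523), a chain of the type I interferon receptor, had scores of 68.9 and 10.2 in CD93-negative replicates 1 and 2 and 6.94 in CD93-positive replicate 2. Its summits in the CD93-negative libraries were 1 bp apart, 96 and 97 bp upstream of the start, and the CD93-positive summit lay 27 bp upstream, which places all 3 inside the printed sequence. Ifngr1 (gene ID 15979, chromosome 10, 19591949 to 19610229), the ligand-binding chain of the interferon-gamma receptor, had scores of 43.7 and 17.3 in the CD93-negative libraries and 5.57 in CD93-positive replicate 2. Its summits lay 108, 162 and 89 bp upstream of the start in the same order.

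The partner chains were listed in CD93-negative replicate 1 alone. Ifnar2 scored 14.4 there, 87 bp downstream of its start, and Ifngr2 scored 20.5, 69 bp upstream of its start. Ifnar2, Ifnar1 and Ifngr2 lie in a row on chromosome 16, between positions 91372783 and 91564007, together with Il10rb, a chain of the interleukin-10 receptor that is no member. A summit of score 5.61 at 91406318 lay 161 bp from the end of Il10rb and 729 bp from that of Ifnar2, so that it counted for both genes. Each receptor of the cluster therefore had a gene-end summit in that library, with Ifnar1 scoring the highest.

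Among the other receptors, the interleukin-6 receptor was covered by both of its chains in CD93-negative replicate 1. Il6ra, the chain that binds interleukin-6, scored 19.2 at 7 bp downstream of its start, and Il6st, the shared signalling chain gp130, scored 12.6 at 52 bp downstream. Il3ra, the ligand-binding chain for interleukin-3, scored 16.1, but its summit lay 836 bp upstream of the nearest RefSeq start and 253 bp outside the gene record. Neither these 3 genes nor Flt3 had a summit in another library.

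Crlf2, the receptor chain for the cytokine TSLP, was covered at its start in each CD93-negative library, scoring 7.99 and 5.52 at 249 and 53 bp downstream. It also held summits farther inside the gene in 3 libraries. Those of the CD93-negative libraries, scoring 22.4 at 109557025 on chromosome 5 and 3.77 at 109557100, were 75 bp apart, 1968 and 1893 bp downstream of the start. That of CD93-positive replicate 2, scoring 5.21 at 109557589, lay 1404 bp downstream of the start and 564 and 489 bp from the others, beyond the 250 bp within which summits were counted as one place. In CD93-positive replicate 2 this was the single member site that counted in a gene window and not at a gene end.

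Kit and Flt3 were used to sort the cells. Kit, the stem cell factor receptor for which the sorted cells were positive, had no summit in its gene or within 10000 bp in any library. Flt3, for which they were negative, scored 10.8 in CD93-negative replicate 1 at 147 bp downstream of its start, and 79.0% of that list's summits scored as high or higher. A start of the long noncoding RNA gene Gm26597 lay nearer to this summit, at 112 bp, so it cannot be assigned to Flt3 alone. Csf1r, Csf2rb, Lifr and Il7r, receptor chains of the myeloid and lymphoid cytokines and of LIF, likewise had no summit in their windows.

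Of the JAK kinases, Jak1, Jak2 and Tyk2 were covered in CD93-negative replicate 1, and Jak3, which pairs with the common gamma chain Il2rg in lymphoid cells, had no summit in its window in any library. Jak1 (gene ID 16451, chromosome 4, 101151974 to 101265282) scored 51.1 in CD93-negative replicate 1, 73 bp upstream of its start, and 5.44 in CD93-negative replicate 2, 23 bp downstream. Tyk2 scored 36.6 and Jak2 22.0, both in CD93-negative replicate 1 alone. None of the JAK genes was listed in CD93-positive replicate 2. Over all genes the shares were 32.2% and 12.9% in CD93-negative replicates 1 and 2 and 3.22% in CD93-positive replicate 2.

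Stat3, which carries signals of interleukin-6 and related cytokines, had the highest score of all members in both CD93-negative libraries. Stat3 (gene ID 20848, chromosome 11, 100886806 to 100939594) scored 75.5 and 27.7 there, at or above which lay 3.03% and 1.16% of the summits of these lists. It scored 6.64 in CD93-positive replicate 2, where 68.4% of summits scored as high or higher. The summits of CD93-positive replicate 2 and CD93-negative replicate 2 fell on the same base, 30 bp upstream of the start, and that of CD93-negative replicate 1 lay 27 bp away. Stat2, which acts in type I interferon signalling, scored 32.6 in CD93-negative replicate 1 at 8 bp upstream of its start, 760 bp from the end of the neighbouring gene Apof. Stat6, which acts downstream of interleukin-4, scored 11.0 in that library.

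The Stat5 genes, which carry signals of many blood cytokines, had no gene-end summit. A summit of score 9.22 at 100850546 on chromosome 11 in CD93-negative replicate 1 lay 8458 bp inside Stat5b, 35 bp downstream of a second RefSeq start of that gene. It also fell into the window of the neighbouring Stat5a, 8805 bp away. The window of Stat4 held a site past its 3′ end, scoring 55.0 and 13.0 in CD93-negative replicates 1 and 2, which lay 35 and 21 bp from the start of the long noncoding RNA gene Gm31812.

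In the SOCS family, inhibitors of which several are themselves made in response to cytokines, 6 of 8 genes were covered in CD93-negative replicate 1. CD93-negative replicate 2 listed 1 of 8. Over all genes the shares were 32.2% and 12.9%. Socs4 was the single one listed in a second library. It scored 36.5 and 7.89 in CD93-negative replicates 1 and 2, but its start lies close to the neighbouring gene Wdhd1, whose end was 64 and 151 bp from these summits, so they cannot be assigned to Socs4 alone. Socs1, an inhibitor of interferon signalling, scored 31.0 at 200 bp downstream of its start. Socs6, Socs5 and Socs7 scored 23.4, 21.7 and 11.2, each within 104 bp of a gene end. Cish, a target of STAT5, had the lowest score of the members in this library, 6.81, at 86 bp downstream of the start shown above. Socs2 had no summit in its window.

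Socs3, the inhibitor of gp130 signalling, missed the gene-end rule narrowly. Its summit in CD93-negative replicate 1, with a score of 9.70, lay 1020 bp inside the gene record and 50 bp downstream of the RefSeq start of the printed sequence. The value nearest to the limit on the other side was that of Sh2b3, 843 bp from the gene end in CD93-negative replicate 1. When summits within 1000 bp of a RefSeq start were counted, for the 36 members in the promoter table (not Csf1r, Csf2rb, Socs2, Socs5, Socs6 and Socs7), Socs3 and Stat5b joined the covered genes. The counts of 36 were then 26 and 10 in CD93-negative replicates 1 and 2, 5 in CD93-positive replicate 2 and 0 in CD93-positive replicate 1, where 34.9%, 14.1%, 3.60% and 0.0172% of 17492 genes were covered.

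Of the other signal regulators, Sh2b3, the adaptor LNK that restrains cytokine signals in stem cells, scored 19.9 and 6.46 in CD93-negative replicates 1 and 2. Its summits lay 298 bp apart, inside the gene record but 698 and 996 bp upstream of the RefSeq start in the promoter table. Ptpn11, the phosphatase SHP2 that passes receptor signals to the RAS pathway, scored 12.3 and 5.50 in the same libraries, with summits 289 bp apart. Cbl, a ubiquitin ligase that removes activated receptors, scored 28.4 in CD93-negative replicate 1 alone. Neither fraction's list gave Ptpn6, the phosphatase SHP1, a gene-end summit.

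The PIM kinases, survival kinases whose genes are switched on by STATs, were the class with the largest share listed in CD93-positive replicate 2, with 2 of 3 genes. Over all genes the share was 3.22%. The class is small, and 91.8% of that list's summits scored as high as that of Pim3 or higher. With scores of at least 5 and 10, 1 and 0 PIM kinases remained in CD93-positive replicate 2. The minimum of 10 lies above 7.95, the median over the 704 genes listed there, so it is not particular to the PIM kinases. Pim1 (gene ID 18712, chromosome 17, 29490785 to 29496111) scored 67.9 and 8.85 in CD93-negative replicates 1 and 2 and 7.47 in CD93-positive replicate 2. The summits of the CD93-negative libraries lay upstream of the start, at 275 and 177 bp, while that of CD93-positive replicate 2 lay 277 bp downstream. Pim1 thus had its CD93-positive summit 552 and 454 bp from the CD93-negative ones. In the other 4 genes these distances ran from 0 bp in Stat3 to 179 bp in Pim3, and over the 701 and 608 genes listed in the same pairs of libraries the median was 46 and 58 bp. With 1 CD93-positive library listing the gene, the shift has no replicate check.

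Pim3 (gene ID 223775, chromosome 15, 88862194 to 88865726) scored 23.8 and 5.44 in the CD93-negative libraries and 4.53 in CD93-positive replicate 2. Its summits lay 141 bp downstream and 16 and 38 bp upstream of the start, and the end of the overlapping gene Gm33049 was 171 to 350 bp away. Pim2 scored 17.8 in CD93-negative replicate 1, 88 bp upstream of its start, and was listed in no other library.

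**Figure D3:**
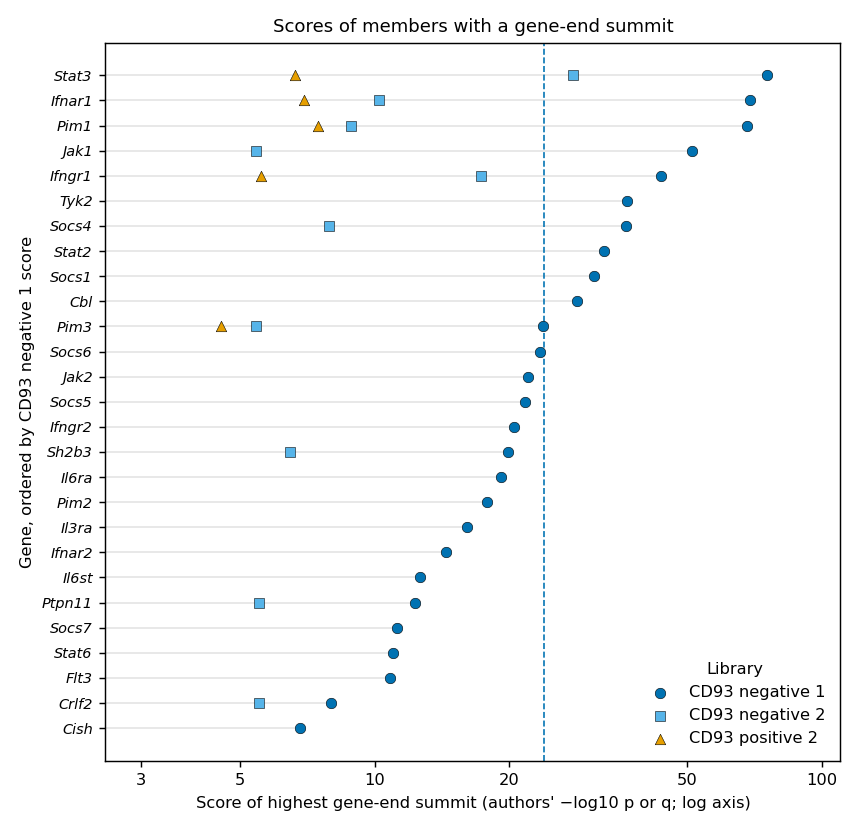
Score of the highest-scoring gene-end summit (log axis) of the 27 genes listed in CD93-negative replicate 1, ordered by that score, with the scores in CD93-negative replicate 2 (squares) and CD93-positive replicate 2 (triangles). The dashed line is the median over all genes listed in CD93-negative replicate 1, 23.9. Scores are not scaled between libraries. The genes with triangles include Stat3, Ifnar1 and Pim1, the 3 with the highest circles.

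The members listed in CD93-positive replicate 2 were mostly those that scored highest in CD93-negative replicate 1. The 7042 genes listed there were divided by score into 4 groups of equal size. Of the 5 members in the highest group (38.6 to 140), which were Stat3, Ifnar1, Pim1, Jak1 and Ifngr1, CD93-positive replicate 2 listed 4, all but Jak1. Over the 1761 genes of that group it listed 30.8%. Of the 5 members of the next group, Tyk2, Socs4, Stat2, Socs1 and Cbl, it listed 0, against 6.82% of all genes. It listed 1 of 10 in the third group, which was Pim3, against 1.65%, and 0 of 7 in the lowest, against 0.511%. CD93-negative replicate 2 listed 5, 1, 2 and 2 members of the same groups, against 74.3%, 45.3%, 27.0% and 11.7% of all genes.

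As a set, the scores of the members lay mostly below the median over all genes listed. Single scores were high, that of Stat3 in both CD93-negative lists and those of Ifnar1 and Pim1 in that of replicate 1. In CD93-positive replicate 2 the members' scores ran from 4.53 (Pim3) to 7.47 (Pim1), and 0 of 5 exceeded 7.95, the median over the 704 genes listed there. In CD93-negative replicate 1 their median was 21.7 against 23.9 over 7042 genes, and in CD93-negative replicate 2 it was 7.17 against 10.1 over 2829 genes. The members exceeded these gene medians in 10 of 27 and 3 of 10 cases.

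**Figure D4:**
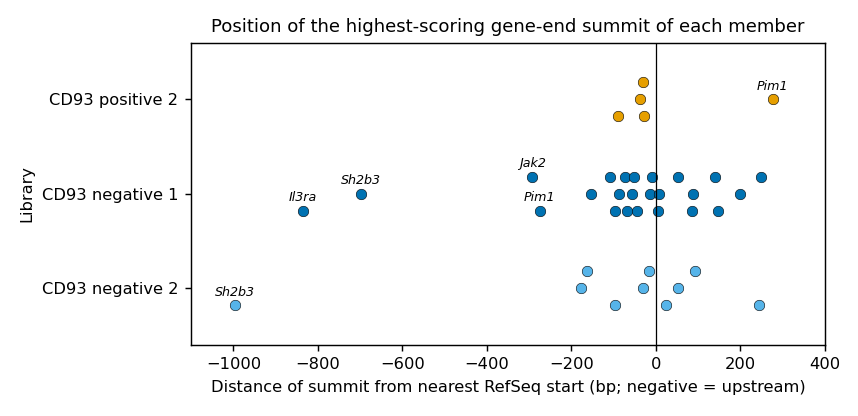
Distance from the nearest RefSeq start to the highest-scoring gene-end summit of each member, in bp with negative values upstream, for the 24, 10 and 5 members of the promoter table listed in CD93-negative replicates 1 and 2 and CD93-positive replicate 2. Genes farther than 250 bp are named. Most points lie within 250 bp of the start, with Sh2b3, Il3ra, Jak2 and Pim1 farther away.

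Most of these summits lay at start sites. In CD93-negative replicate 1, 20 of 24 lay within 250 bp of a RefSeq start, in CD93-negative replicate 2, 9 of 10, and in CD93-positive replicate 2, 4 of 5. Over all genes listed in these libraries the shares were 84.3%, 79.2% and 79.6%. The median distance was 87.5, 94.5 and 38.0 bp for the members, against 76, 121 and 129 bp over all genes.

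In the wider window, summits were listed for 35 members in CD93-negative replicate 1, 12 in CD93-negative replicate 2, 6 in CD93-positive replicate 2 and 0 in CD93-positive replicate 1, while 43.5%, 18.5%, 4.62% and 0.0411% of all genes were covered. The window added 8 genes to those covered at a gene end, namely Epor, Csf3r, Il2rg, Stat4, Stat5a, Stat5b, Socs3 and Ptpn6. In 6 of the 8, all but Stat5b and Socs3, the start nearest to each summit belonged to another gene. The site in the window of Epor, the erythropoietin receptor, scored 46.5 and 16.0 in CD93-negative replicates 1 and 2 and lay 67 and 69 bp from the start of Swsap1. That near Il2rg, the common gamma chain, lay 56 bp from Med12. Those near Ptpn6 lay at Phb2 and Grcc10 or away from starts. Of those near Csf3r, the G-CSF receptor, 1 lay at Mrps15 and 1 at 5558 bp from the gene. The latter lay 6771 bp from the nearest start, that of Gm32908, and 6776 bp from the Csf3r start. It therefore cannot be assigned to another gene. A window call for these receptors is therefore no measure of their own start sites. Kit, Csf1r, Csf2rb, Lifr, Il7r, Jak3 and Socs2 were the 7 members with no summit in the window in any library.

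The promoter windows of the 36 members in the table, from 250 bases before to 50 after the start, were searched for 4 motifs on both strands. The palindrome TTCNNNGAA was found in 5, namely Ifnar1, Ifnar2, Cish, Socs3 and Il7r, or 13.9%, against 7.80% of 17492 genes. Of the 26 members with a summit at a start in CD93-negative replicate 1 it was found in 4, and of the 10 without in 1, against 6.21% and 8.66% of all genes with and without. The GC box GGGCGG was found in 22 of those 26 (84.6%) and 5 of the 10, against 74.6% and 32.3% of all genes. The ETS core GGAA, which lies in nearly every promoter of this length (95.7%), was found in 33 of 36, and the AP-1 site TGACTCA in 0, against 4.54% of all genes. Some matches to TTCNNNGAA contain GGAA and so count for both motifs. These matches describe letters and no binding.

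Of a further 77 genes of the pathway, 29 were covered in CD93-negative replicate 1 (37.7%, against 32.2% of all genes), 10 in CD93-negative replicate 2 (13.0% against 12.9%), 1 in CD93-positive replicate 2 (1.30% against 3.22%) and 0 in CD93-positive replicate 1. In CD93-negative replicate 1, coverage reached 18 of 24 signalling genes and inhibitors and 6 of 12 targets, but 4 of 26 further receptors (Il4ra, Il9r, Il10rb and Csf2ra) and 1 of 15 ligands, Osm. The 10 listed in both CD93-negative libraries were Ptpn2, Pias4, Shc1, Bcl6, Dusp1, Cblb, Dusp6, Stam, Irf1 and Ep300. Ptpn2, a phosphatase that acts on JAK1 and STATs, was the one also listed in CD93-positive replicate 2, with a score of 8.78 against 57.1 and 17.9 in CD93-negative replicates 1 and 2. Pias4, a SUMO ligase that inhibits STATs, scored 65.2 and 16.6 in the CD93-negative libraries. Irf1, a transcription factor gene induced by interferon, scored 36.5 and 6.84 there.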

How the data were processed

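ATAC-seq libraries of CD93-positive and CD93-negative HSCs, 2 of each, were analysed. The submitters' processing notes name Bowtie2, MACS2 and the build mm10. The labels and files state no versions, filters or thresholds. The deposited files hold 1 summit list per library, not pooled, whose score is taken as the −log10 of MACS2's p or q value (which of them is not stated), set against each library's own background. Scores are not scaled between libraries, and list length, not read depth, is the only measure of yield here.

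Gene records, starts and promoter sequences came from RefSeq tables of GRCm38.p6, the assembly behind mm10. All 42 members, 77 other pathway genes and 56 markers matched a symbol. For each gene, the highest-scoring summit per list was taken, and its place in the list is given as the percent of summits scoring as high or higher. Positions are 1-based. The members and lists were chosen with earlier results of these data known, so counts are set beside all protein-coding genes as a description and no test is given. Of the genes of the pathway that are no members, 10 listed in both CD93-negative libraries, ranked by the lower score, were named by rule. Of these, Ptpn2, Pias4 and Irf1 are described with scores. Some items are not reported here. The window calls were checked on simulated summits at 200 genes, all recovered as made. Alternatives were other windows, score minimums of 5 and 10, lists of equal length, summits merged within 500 bp, other sharing distances and leaving out each library. Scripts ran in Python 3.11.15 using pandas 2.3.3, numpy 2.4.6 and matplotlib 3.10.9.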

Additional observations from a re-analysis of the deposited data

How the results depend on the processing

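The lists' length limits every count here. With 711 summits per list, CD93-negative replicates 1 and 2 listed 3 and 2 members at gene ends and 3 and 3 in the window. Both differences of group means were 0, and they turned to 2.5 (gene ends) and 3 (window) when CD93-positive replicate 1, whose list is shorter, was also left out, a setting added after seeing the data. The cause was not tested. At this length 1 member was listed in both CD93-negative libraries and in all 3. By class, the counts of replicates 1 and 2 were then 1 and 1 for receptors, 0 and 0 for JAK kinases, SOCS genes and other regulators, 1 and 1 for STATs, and 1 and 0 for PIM kinases. With CD93-negative replicate 1 reduced to 2755 summits it listed 9 members at gene ends (2 receptors, 2 JAK kinases, 2 STATs, 2 SOCS genes, 0 other regulators and 1 PIM kinase), where 12.9% of all genes were covered, and 12 in the window. Then 6 were listed in both CD93-negative libraries and the differences were -7 and -9. A score of at least 10 left 0 members in CD93-positive replicate 2 at gene ends and in the window, 3 at gene ends and 5 in the window in CD93-negative replicate 2, 3 in both CD93-negative libraries and 0 in all 3. It left 0 JAK kinases, SOCS genes, other regulators and PIM kinases in CD93-negative replicate 2. A score of at least 5 left 1 PIM kinase in CD93-positive replicate 2, and a window of 500 bp left 1 other regulator in CD93-negative replicate 2. The gene body alone held summits for 19 and 7 members in CD93-negative replicates 1 and 2 (difference -11). These settings use fewer summits or shorter windows. Except for the gene-end counts per library with lists cut to 711 or 2755 summits, no share of all genes is given for them. Whether the members fell more than other genes there is not known. Leaving out 1 library, the difference at gene ends ran from -24.5 (without CD93-negative replicate 2) to -7.5 (without CD93-negative replicate 1), and in the window from -32 to -9. Of 274 alternatives, 222 stayed within 1.5 times the value reported, 50 did not, and the 2 differences named above changed sign. Part of the 222 could hardly move or not at all. CD93-positive replicate 1 counted 0 under every setting, and cutting lists to 711 or 2755 summits leaves CD93-positive replicate 2 whole. The tally is therefore no measure of robustness. At a sharing distance of 250 bp, 7 of the 10 members listed in more than 1 library had all their gene-end summits at one place, and 5, 9 and 10 did at 100, 500 and 1000 bp. The same share over all genes is not given. Between the CD93-negative libraries the median distance was 97.0 bp over the 10 members, against 53.0 bp over 2787 genes, so the members' summits lay farther apart. Counting by RefSeq starts was chosen after seeing the data. No paired analysis was possible because nothing in the labels ties libraries of the 2 fractions together.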
